A study of Homo sapiens with 6 samples.

Results

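The D-type cyclin genes CCND1, CCND2 and CCND3, their kinase genes CDK4 and CDK6 and the retinoblastoma family genes RB1, RBL1 and RBL2 were examined in HCT116, a human colorectal cancer cell line, after transfection of miR-8485 mimics. The 8 genes were taken by symbol from a table of 58735 genes, and each was listed once. RNA-seq had been performed on 3 libraries of cells with the genotype WT that received a control transfection (CTR) and on 3 libraries of cells given miR-8485 mimics, which are short synthetic RNAs that act as the mature miRNA. The study's transfection protocol gives 50 nM of mimics and, where no other time is stated, collection after 48 h. The 3 libraries of a group were independent biological replicates according to the labels, and the sequence and concentration of the control are not given in the sources used here. The values were fragments scaled to gene length and library size (FPKM), and 17473874 to 18480047 fragments per library lay on listed genes. Being per length, FPKM can be compared between genes, but only roughly, as the length used need not be that of the transcript present. The comparison asks how the genes that control entry into the cell cycle stood in the mimic libraries. In bulk libraries, fewer cells that express a gene and less RNA of it per cell cannot be told apart, and FPKM does not show how much RNA a cell held.

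D-type cyclins are unstable proteins that are made in response to growth signals and bind CDK4 or CDK6. The active kinases phosphorylate the pocket proteins encoded by RB1, RBL1 and RBL2, which otherwise hold E2F transcription factors in check, and released E2F factors switch on genes for DNA replication. Many colorectal tumors have a high level of cyclin D1, whose gene is induced by WNT and RAS signaling.

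A miRNA pairs with mRNAs mainly through its seed. Bases 2 to 8 of the mimic's stated sequence read ACACACA, which matches TGTGTGT in a 3′ UTR. In the transcripts tagged as canonical in GENCODE release 44 (GRCh38, the build of the deposited table), the 3′ UTRs of 4 members held this word and those of CCND3, CDK4, RB1 and RBL2 held none. Of 19605 genes with a canonical 3′ UTR, 25.1% held at least 1 copy and 4.44% held at least 5. CDK6 held 16 overlapping copies, more than 99.05% of these genes, in a 3′ UTR of 10219 bases, whereas CCND1 held 2 copies in 3192 bases, CCND2 1 copy in 5344 bases and RBL1 1 copy in 2410 bases. The stretches are printed because they show which members the seed matches and how many copies lie together. They are written in the direction of the transcript with the copies in capitals, at chr11:69652332-69652352 and chr11:69654248-69654268 (plus strand) for CCND1, chr12:4304589-4304609 (plus) for CCND2, chr7:92614727-92614747 and chr7:92614699-92614728 (minus) for CDK6, and chr20:36997144-36997164 (minus) for RBL1.
CCND1, first stretch: tttttgtTGTGTGTgcaggga
CCND1, second stretch: tggatgtTGTGTGTatcgaga
CCND2: acattcgTGTGTGTctgcttt
CDK6, first stretch: tttgagTGTGTGTGTgcaTGT
CDK6, second stretch: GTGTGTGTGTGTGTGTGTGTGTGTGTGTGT
RBL1: tttctagTGTGTGTctggaat
The last capitals in the first line for CDK6 are the beginning of its second stretch. That stretch is 33 bases long with 14 copies, of which 30 bases are printed, and it begins 411 bases after the stop codon. A match in letters is not a measured site, and the 3′ UTRs that HCT116 cells use were not measured. MIR8485, the gene of the miRNA itself, was listed at 0 in all 6 libraries, and the amounts of mature miRNA and of mimic in the cells were not measured here.

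**Figure D1:**
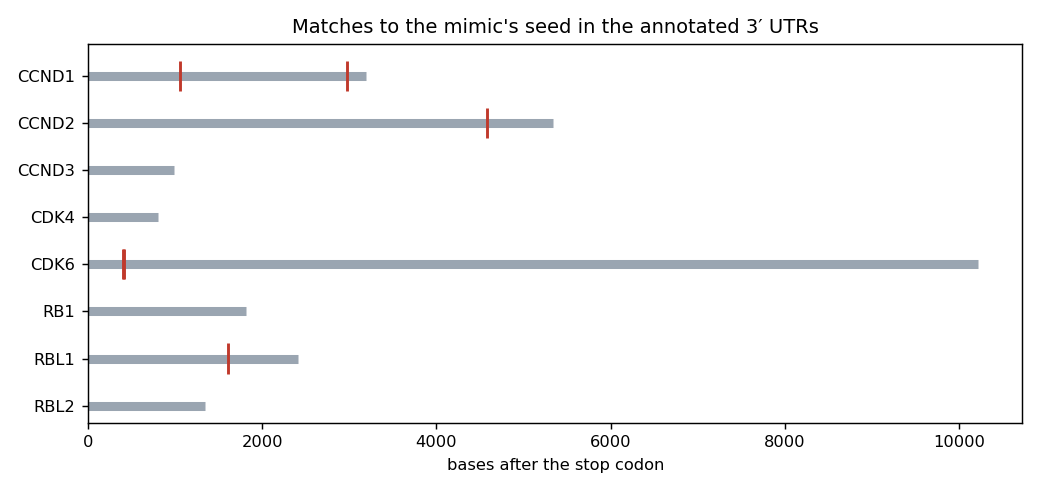
Positions of matches to the mimic's seed (red ticks) along the canonical 3′ UTR of each member (gray bars), in bases after the stop codon. CDK6 has the longest 3′ UTR of the 8 genes and 16 copies, all close to its start. CCND3, CDK4, RB1 and RBL2 have no match to bases 2 to 8, and RBL2 has 1 match to bases 2 to 7, which is not drawn.

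Of the 8 members, 7 had a mean of at least 1 FPKM and were tested with limma on log2(FPKM + 0.1), two-sided, with Benjamini-Hochberg adjustment over all 12349 genes at this level. CCND1, CCND3 and RB1 were lower in the mimic libraries and CDK4, CDK6 and RBL2 were higher at an adjusted p under 0.05, and RBL1 was not past the threshold. Large parts of this transcriptome moved, so these counts have to be read against the background. Of all tested genes, 59.6% were past the threshold, 29.1% higher and 30.5% lower, and with only 7 members tested the 6 calls cannot be set far apart from that background. In 6 of the 7 members the 3 mimic libraries lay entirely on one side of the 3 CTR libraries, as they did for 66.5% of tested genes. The median log2 fold change of the 7 members was -0.16, against -0.0041 over all tested genes, and their median absolute change was 0.50 against 0.33. The deposited FPKM values had different sums between libraries. After rescaling to TPM the median of all genes moved to -0.12, and 35.6% of the called genes were higher, against 48.8% in the deposited scale, while no member changed its direction.

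The largest change of the family was the fall of CCND1. CCND1, which encodes cyclin D1 and lies on chromosome 11 from 69641087 to 69654474 (plus strand, ENSG00000110092), had 209, 216 and 223 FPKM in the CTR libraries and 25.0, 21.8 and 24.3 FPKM in the miR-8485 libraries. Every mimic library was far below every CTR library, and the spread within each group was small. The means were 216 ± 7.21 FPKM (SD, n = 3) and 23.7 ± 1.69 FPKM (SD, n = 3). On the log2 scale it fell by 3.18 (-3.18, SE 0.06, limma adjusted p = 4.1e-07), a 9.09-fold lower level, and the 95% interval of the log2 fold change was -3.32 to -3.04. This was the 11th largest fall among the 12349 tested genes, and only 0.130% of them changed by more in either direction. Ranked by level, CCND1 stood at place 151 in CTR and at place 1842 in miR-8485. The values rest on 18182 to 19510 fragments per CTR library and 1906 to 2234 per mimic library. The log2 fold change stayed between -3.30 and -3.12 over 17 alternatives of scaling, filter, test and libraries. The exons of CCND1 share 497 bases with LTO1 on the opposite strand, which had 2.41 to 2.96 FPKM in every library, far below CCND1.

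CCND3 changed little, and CCND2 was nearly silent. CCND3, which encodes cyclin D3 and lies on chromosome 6 from 41934933 to 42050357 (minus strand), had 11.8, 11.1 and 12.2 FPKM in CTR and 9.92, 10.6 and 10.8 FPKM in miR-8485. The highest mimic library lay just below the lowest CTR library. Its log2 fold change was -0.16 (SE 0.06, 95% interval -0.30 to -0.023, limma adjusted p = 0.0469), and 73.3% of tested genes changed by more. This call did not hold without CTR replicate 1 (-0.15, adjusted p = 0.0937) or 3 (-0.13, 0.138) and without miR-8485 replicate 1 (-0.12, 0.139), 2 (-0.17, 0.0810) or 3 (-0.18, 0.0620), and over 17 alternatives its adjusted p lay between 0.0141 and 0.139. CCND2, which encodes cyclin D2 and lies on chromosome 12 from 4273772 to 4305350, had 0 fragments in each CTR library and 0, 1 and 3 fragments in miR-8485 replicates 1 to 3. Both groups were at or below 3 fragments per library, about 0.0220 to 0.0233 FPKM for this gene, so no fold change is given.

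**Figure D2:**
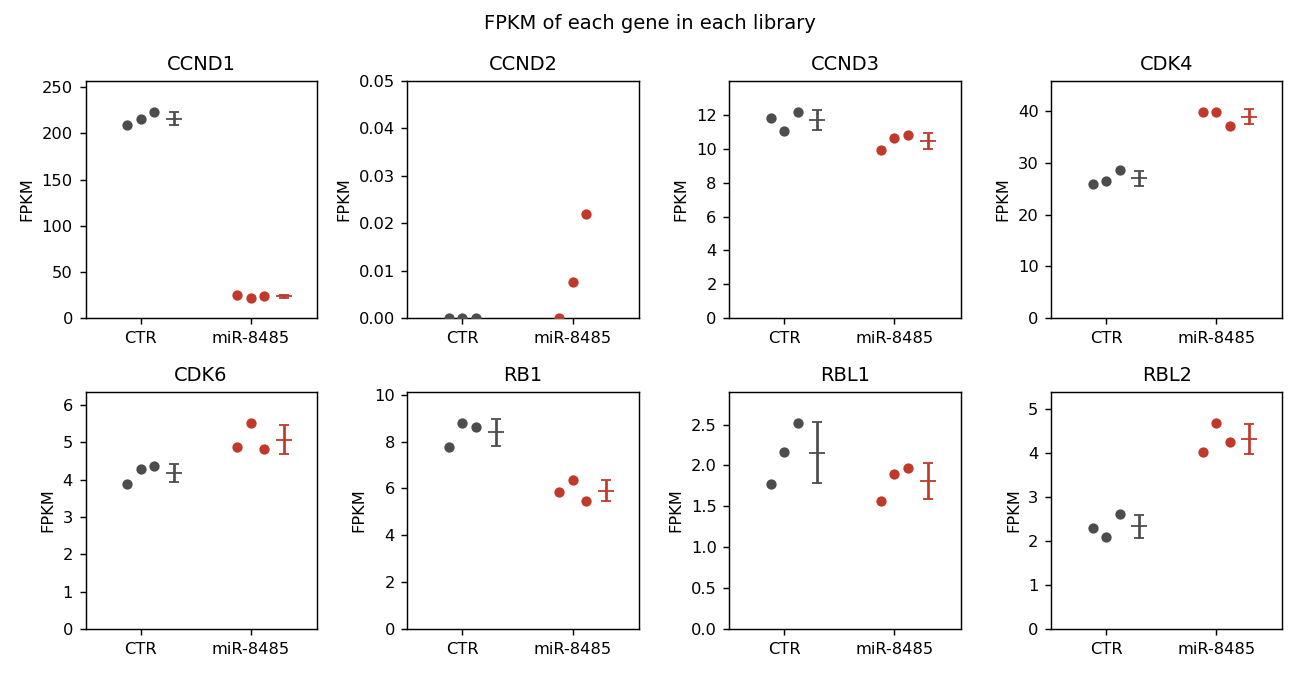
FPKM (vertical axes, each from 0 and on its own scale) of the 8 genes in the 3 CTR libraries (gray points) and the 3 miR-8485 libraries (red points), with the mean and SD beside the points except for CCND2, which had at most 3 fragments. The CCND1 points drop from above 200 to below 26 FPKM, and those of RBL1 overlap between the groups.

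The balance among D-type cyclins therefore differed between the groups. Summed over the 3 genes, cyclin D transcripts were at 221, 227 and 235 FPKM in CTR and at 35.0, 32.5 and 35.1 FPKM in miR-8485. CCND1 made up 94.6%, 95.1% and 94.8% of this sum in CTR and 71.6%, 67.2% and 69.2% in miR-8485, and CCND3 held nearly all of the rest. The ratio of CCND1 to CCND3 went from 18.5 ± 0.960 (SD, n = 3) to 2.28 ± 0.237 (SD, n = 3). On the log2 scale the difference between CCND1 and CCND3 was smaller by 3.02 in the mimic libraries, and a ratio within a library does not depend on how libraries are scaled. The groups did not overlap (exact permutation test over libraries, two-sided, p = 0.10, the smallest that 3 against 3 libraries can give). Across 15 such sums, shares and ratios the groups did not overlap in 13, with an exact p of 0.10, adjusted to 0.115, for each of these. Many of the measures are built from the same genes, so they are not separate results. Among all tested genes, the groups did not overlap for 66.5%.

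Both partner kinases were higher. CDK4, on chromosome 12 from 57747727 to 57756013 (minus strand), had 25.9, 26.4 and 28.6 FPKM in CTR and 39.7, 39.8 and 37.2 FPKM in miR-8485. Every mimic library was above every CTR library. CDK4 rose by 0.53 on the log2 scale (SE 0.05, limma adjusted p = 1.5e-04), a 1.44-fold higher level with a 95% interval of 1.32 to 1.57, and it lay between 0.41 and 0.57 over 17 alternatives. The exons of CDK4 share 1369 of 3094 bases with TSPAN31, a tetraspanin gene on the opposite strand. TSPAN31 was higher as well, at 1.67 FPKM in CTR and 2.67 FPKM in miR-8485 (log2 fold change 0.64, adjusted p = 0.0011 in limma). Whether the counting used strand is not given in the sources used here, so reads in the shared stretch cannot be assigned, although TSPAN31 was at a much lower level than CDK4.

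CDK6, on chromosome 7 from 92604921 to 92836594 (minus strand), encodes the second kinase and is the member with 16 seed matches. It had 3.89, 4.27 and 4.36 FPKM in CTR and 4.88, 5.53 and 4.81 FPKM in miR-8485. The mimic libraries were above the CTR libraries, by a small margin. CDK6 rose by 0.27 on the log2 scale (SE 0.08, 95% interval 0.088 to 0.46, limma adjusted p = 0.0192). The call was lost without CTR replicate 1 (0.22, adjusted p = 0.0527), without miR-8485 replicate 2 (0.21, adjusted p = 0.0631) and after rescaling to TPM (0.16, adjusted p = 0.109). Over 16 alternatives the adjusted p lay between 0.0013 and 0.109, and the value stayed above 0 in each. Among 10449 tested genes with a canonical 3′ UTR, 232 held at least 10 copies of TGTGTGT, and 63.4% of these were lower and 9.91% higher, CDK6 included. Of the 7421 genes with no copy, 29.4% were lower and 31.6% higher. With 2 to 9 copies, the bin of CCND1, 47.3% were lower and 17.6% higher (median -0.18). With 1 copy, the bin of RBL1, 38.9% were lower and 22.7% higher (median -0.10). The 3′ UTRs of these bins had medians of 3249 and 2242.5 bases. The median log2 fold change was -0.41 with at least 10 copies and 0.017 with none, but the 3′ UTRs of the former were also longer, with a median of 4027 against 878 bases, and the part of length was not tested.

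CDK4 remained the main kinase transcript of the pair. It held 86.6% ± 0.467 (SD, n = 3) of the summed FPKM of CDK4 and CDK6 in CTR and 88.5% ± 0.634 (SD, n = 3) in miR-8485. The log2 difference of CDK6 to CDK4 was lower by 0.25 in the mimic libraries (exact permutation test, p = 0.10), but with the trend of each library against gene length removed it was -0.077, and CDK6 has the longest gene model of the family with 12260 bases. The summed cyclin D transcripts, mostly CCND1, were lower and the summed kinase transcripts, mostly CDK4, were higher, so their proportion changed. Summed cyclin D transcripts were 7.40, 7.41 and 7.13 times the summed kinase transcripts in CTR and 0.784, 0.716 and 0.837 times in miR-8485, with no overlap between the groups.

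**Figure D3:**
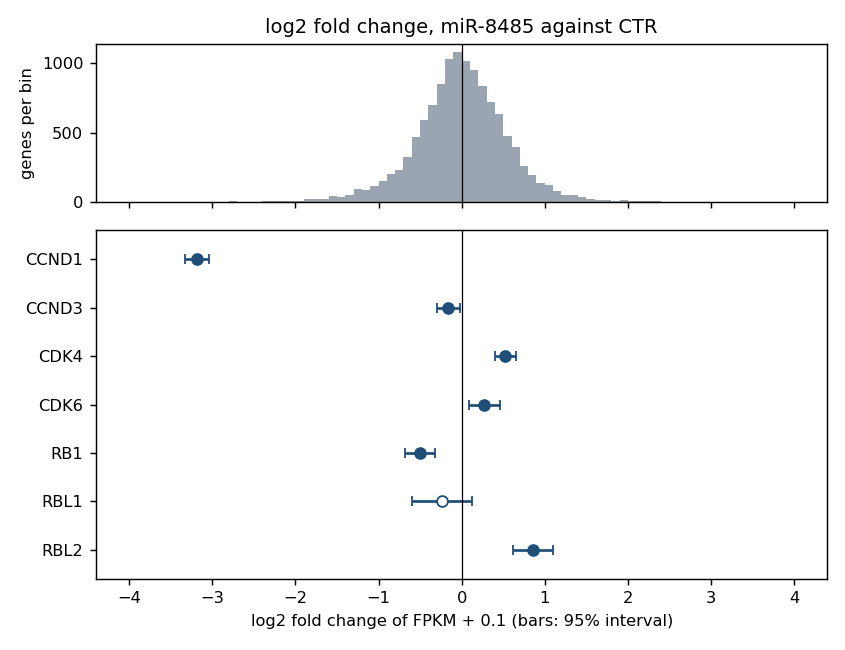
Upper panel, number of tested genes per bin of log2 fold change (miR-8485 against CTR), and lower panel, the log2 fold change of the 7 tested members with 95% intervals from limma (filled, adjusted p under 0.05, open, not under 0.05). CCND1 at -3.18 lies in the far tail of all genes, and the other 6 members lie between -0.50 and 0.86, inside the bulk.

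Among the pocket protein genes, RB1 and RBL2 moved in opposite directions. RB1, the retinoblastoma tumor suppressor gene on chromosome 13 from 48303726 to 48599436 (plus strand), had 7.75, 8.81 and 8.62 FPKM in CTR and 5.86, 6.36 and 5.47 FPKM in miR-8485. All mimic libraries were below all CTR libraries. RB1 fell to 70.2% of its CTR mean, a log2 change of -0.50 (SE 0.08, limma adjusted p = 0.0010) that lay between -0.62 and -0.44 over 17 alternatives. RBL2, which encodes a pocket protein that binds repressive E2F factors in resting cells and lies on chromosome 16 from 53433977 to 53491649 (plus strand), had 2.30, 2.09 and 2.61 FPKM in CTR and 4.01, 4.68 and 4.24 FPKM in miR-8485. The groups were well separated, and RBL2 rose by 0.86 on the log2 scale (SE 0.10, limma adjusted p = 3.0e-04), a 1.82-fold higher level with a 95% interval of 1.54 to 2.15. It was the 714th largest rise among the tested genes, and it lay between 0.67 and 0.94 over 16 alternatives. AKTIP, which shares 609 exonic bases with RBL2 on the opposite strand, had 3.56 FPKM in both groups (log2 fold change 0.00017).

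RBL1, on chromosome 20 from 36996349 to 37095995 (minus strand), encodes the pocket protein that is made mainly in cycling cells and is itself an E2F target. It had 1.78, 2.16 and 2.52 FPKM in CTR and 1.56, 1.89 and 1.98 FPKM in miR-8485. The groups overlapped, and with 167 to 272 fragments per library this was the least deeply measured of the tested members. Its log2 fold change was -0.23 (SE 0.16, 95% interval -0.60 to 0.13, limma adjusted p = 0.229), so neither no change nor a fall of the size of RB1 lay outside the interval.

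In the deposited scale, the sum of the 3 pocket protein genes differed little and its makeup differed more. The sum was 11.8, 13.1 and 13.8 FPKM in CTR and 11.4, 12.9 and 11.7 FPKM in miR-8485, and the groups overlapped (exact permutation test, two-sided, p = 0.20). Unlike shares and ratios, this sum depends on how libraries are scaled. FPKM over all genes summed to 322999 to 339641 in CTR and to 351052 to 369643 in miR-8485. Rescaling to TPM would lower the mimic values relative to CTR, and the overlap was not tested on that scale. RB1 made up 65.2% ± 2.39 (SD, n = 3) of the sum in CTR and 49.1% ± 2.23 (SD, n = 3) in miR-8485. RBL2 made up 18.1% ± 1.85 (SD, n = 3) and 35.9% ± 0.678 (SD, n = 3). The share of RBL1 was 16.6% ± 1.65 (SD, n = 3) and 15.1% ± 1.66 (SD, n = 3), with overlapping groups (exact permutation test, p = 0.30). The ratio of RB1 to RBL2 went from 3.63 ± 0.504 (SD, n = 3) to 1.37 ± 0.0865 (SD, n = 3), with no overlap.

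**Figure D4:**
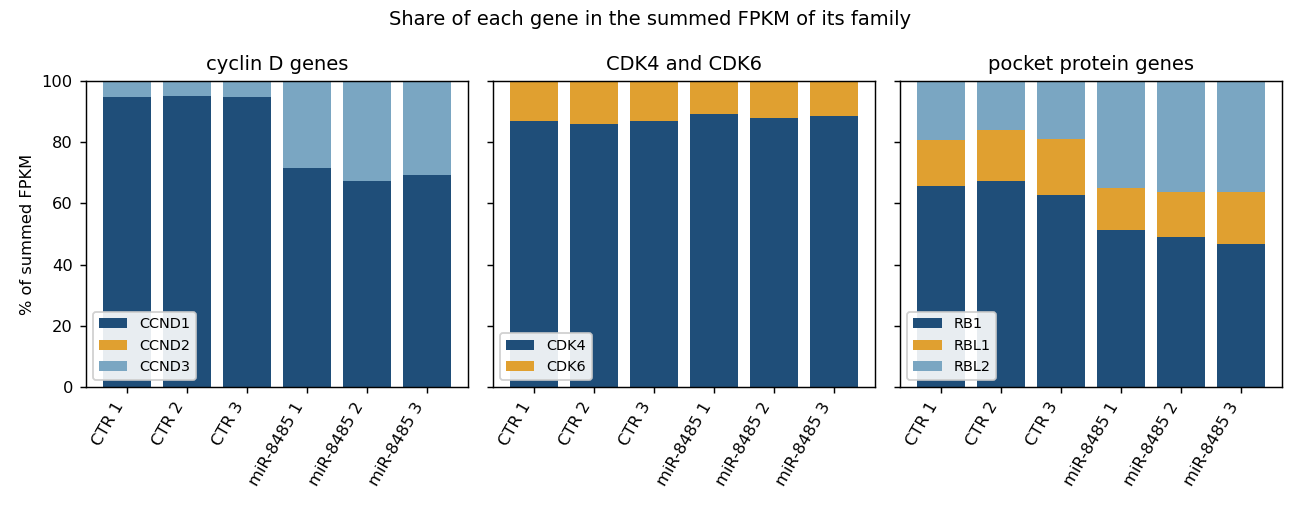
Share in percent of each gene in the summed FPKM of the cyclin D genes (left), of CDK4 and CDK6 (middle) and of the pocket protein genes (right), with 1 stacked bar per library. CCND1 falls from about 95% to about 69% of cyclin D, and the share of RBL2 among pocket proteins goes from 18.1% to 35.9%.

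By level, the order in CTR was CCND1, CDK4, CCND3, RB1, CDK6, RBL2, RBL1 and CCND2, and only RBL2 and RBL1 overlapped as neighbors. In miR-8485 the order was CDK4, CCND1, CCND3, RB1, CDK6, RBL2, RBL1 and CCND2, and only RB1 and CDK6 overlapped. CDK4 at 38.9 FPKM thus stood above CCND1 at 23.7 FPKM in the mimic libraries. FPKM divides by the gene length in the table, which need not be that of the transcript in use, so levels of different genes are compared only roughly.

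The genes whose profile over the 6 libraries was closest to that of CCND1 were CTSD, SPARC, GSN and SLC31A1, at Euclidean distances of 0.259 to 0.452 in log2(FPKM + 0.1) relative to the CTR mean. They encode the lysosomal protease cathepsin D, a matricellular protein, the actin-severing protein gelsolin and a copper transporter. Their log2 fold changes lay between -3.35 and -3.10, and CTSD, the nearest, had 36.8 FPKM in CTR and 3.94 FPKM in miR-8485. With 2 groups of 3 libraries, this likeness reflects mostly the size of the fall.

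Upstream and downstream genes of the pathway were grouped in lists by role. Beside each count stand the 29.1% higher and 30.5% lower among all tested genes. Of the 7 genes of CDK inhibitors, all of which were tested, 6 were lower (85.7%) and 0 higher, with a median log2 fold change of -0.68. The other gene, CDKN2A, which was named after its values were seen, was at 12.1 FPKM in CTR and 13.7 FPKM in miR-8485 (log2 fold change 0.18, limma adjusted p = 0.114), and 1 gene was higher with the voom test and without CTR replicate 1. Inhibitors of CDK4 and CDK6 were among them. CDKN2B, which encodes such an inhibitor, had the largest fall, from a CTR mean of 2.85 FPKM (SD 0.169, n = 3) to 0.799 FPKM (SD 0.0705, n = 3) with the mimics (log2 fold change -1.71, adjusted p = 3.3e-05 in limma). Of the 9 genes of cyclin D turnover, 8 were tested, and 2 were higher (25.0%) and 3 lower (37.5%), shares near those of all tested genes. The median was -0.0075, and it was above 0 with quantile normalization (0.033) and with the length trend removed (0.080). Of the 6 with a mean of at least 5 FPKM, 0 were higher and 3 lower (median -0.17), and after rescaling to TPM the median was -0.12. FBXO4, a ubiquitin ligase subunit reported to act on cyclin D1, rose most (log2 fold change 1.24, adjusted p = 1.3e-04), and DDB1, a subunit of CUL4 ubiquitin ligases, fell most (-0.91, adjusted p = 2.1e-05). Of the 6 genes of kinase activation, 1 was higher (16.7%) and 3 lower, with a median of -0.15. After rescaling to TPM, 0 were higher and 4 lower, with a median of -0.27. CDC37, the co-chaperone that loads CDK4 onto HSP90, was higher by 0.21 in the deposited scale but not called in TPM, and CDK7, the kinase that activates other CDKs, was lower by 0.39 on the log2 scale (-0.39).

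Downstream of the pocket proteins, most listed genes were lower. Of the 10 E2F and DP factors, 7 were lower and 1 higher, with a median of -0.78, and of the 6 with a mean of at least 5 FPKM, 4 were lower and 1 higher (median -0.50). E2F8, an E2F repressor whose gene is active in S phase, fell most (-1.73, adjusted p = 4.3e-05 in limma), and TFDP2, a dimerization partner of E2F factors, rose (0.83, adjusted p = 5.7e-05). All 4 tested genes of cyclin E, cyclin A and CDK2 were lower (median -0.41), with the largest fall for CCNA2 (-0.91). Only 2 of the 4 were called lower without CTR replicate 3 (median -0.39) or without miR-8485 replicate 1 (median -0.35). The MuvB core forms the DREAM repressor with RBL1 or RBL2, and MYBL2 binds MuvB in their absence. Of the 5 tested genes of the MuvB core and MYBL2, 4 were lower and 1 higher (median -0.83), and of the 2 with a mean of at least 5 FPKM, 1 was lower and 1 higher (median -0.28). LIN52 fell most (-1.25) and RBBP4 rose (0.49). Of the 26 E2F target genes, which include RBL1 and overlap with 4 of the other lists, 20 were lower and 1 higher, against 30.5% and 29.1% of all tested genes, with a median of -0.53. Without RBL1 the counts were 20 and 1 of 25, with a median of -0.62. E2F8 again fell most, and MCM7, a subunit of the replicative helicase, was the only gene of this list that was higher (0.15, adjusted p = 0.0186). It was not called after rescaling to TPM or without miR-8485 replicate 1, where 0 genes of the list were higher. Per library, the median of the E2F targets relative to the CTR mean was -0.040 to 0.0084 in CTR and -0.53 to -0.47 in miR-8485. The lists are small and share genes, and protein levels, phosphorylation of RB1 and cell cycle phase were not measured here.

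**Figure D5:**
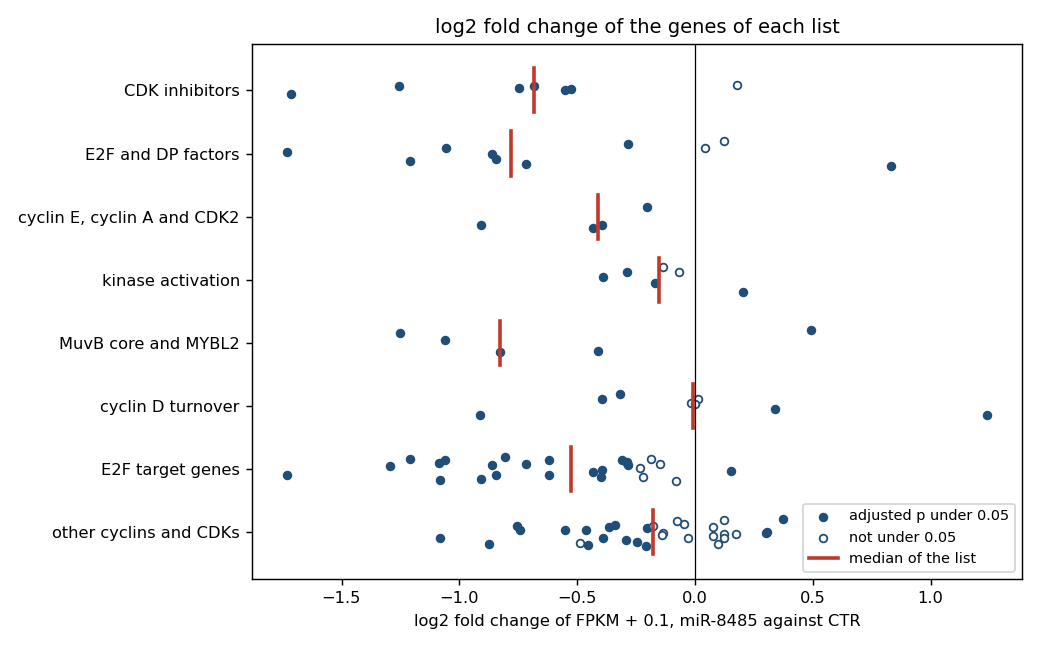
Log2 fold change (horizontal axis, miR-8485 against CTR) of each tested gene in the 8 lists, filled where the adjusted p was under 0.05, with the list median as a red line. The medians of the CDK inhibitors, E2F and DP factors and MuvB genes lie between -0.83 and -0.68, and that of cyclin D turnover lies at -0.0075.

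As a check of the cells, the epithelial genes EPCAM and CDH1 had 127 to 148 and 18.7 to 20.4 FPKM over the 6 libraries. The keratin genes KRT8 and KRT18 had 817 to 873 and 539 to 609 FPKM in CTR and 543 to 561 and 286 to 297 FPKM in miR-8485. VIL1, which was also chosen as a marker of colorectal epithelial identity, was nearly absent, with at most 0.0639 FPKM. PTPRC, COL1A2 and PECAM1, which mark blood, fibroblast and endothelial cells, had at most 0.0855 FPKM. Mitochondrial genes held 7.94% to 10.2% of the fragments in CTR and 10.6% to 11.3% in miR-8485, and their part in the changes of the members was not tested.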

How the data were processed

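The data were 6 RNA-seq libraries of HCT116 cells, grouped as CTR and miR-8485 by the sample titles. According to the paper and the labels, the authors used fastp for trimming, HISAT2 2.0.5 for alignment to hg38 and featureCounts 1.5.0-p3 for counts per gene. The authors deposited FPKM values in 1 table with gene names, coordinates and lengths, and the gene annotation release, the strand setting and the treatment of multiply mapped reads are not given in the sources used here. No column of sample values was left without a sample (0 columns).

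In each library, 100% of the values above 0 were whole multiples (within 0.02) of what 1 fragment is worth, so fragments were recovered. The members, gene lists and tests were chosen with earlier results of these data known. Genes with a mean of at least 1 FPKM were tested on log2(FPKM + 0.1) with limma 3.58.1 in R 4.3.3 (variance trend, two-sided, Benjamini-Hochberg over 12349 genes), after the code was tested on simulated data. Fold changes on this scale understate those of low genes. Sums, shares and ratios of members were compared by exact permutation over libraries in scipy 1.17.1. Named genes were all members, the called gene with the largest rise and with the largest fall of each list, and the 5 protein-coding genes closest in profile to the member with the largest change, of which 1 is not reported here. Seed matches were counted in 3′ UTRs of GENCODE release 44, and the bins by number of copies were set after the data were seen. Alternatives were other pseudocounts, filters and scalings, no variance trend, a replicate block, voom on fragments and each library left out.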

Additional observations from a re-analysis of the deposited data

How the results depend on the processing

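CCND1, CDK4, RB1 and RBL2 kept their direction and their call in all alternatives that could be fitted (17, 17, 17 and 16), and RBL1 was past the threshold in none of 16 (adjusted p 0.0749 to 0.561). CDK6, RBL1 and RBL2 were below the filter on a mean of at least 5 FPKM. CCND2 entered the fit only with no filter, and that value is not given because it rests on at most 3 fragments per library. The call of CCND3 was lost with no filter (-0.16), quantile normalization (-0.12), the gene length trend removed (-0.11), no variance trend (-0.16) and the replicate block (-0.16, adjusted p = 0.0571), and that of CDK6 with no filter (0.27, adjusted p = 0.0518) and TPM (0.16). With each library left out, CCND3 ranged from -0.20 to -0.12 and CDK6 from 0.21 to 0.31. The causes were not tested. The filter on at least 5 FPKM, which leaves 6878 genes to test, gave 2303 higher and 2417 lower genes, against 3593 and 3769. The log2 difference of CDK6 to CDK4 went from -0.25 to -0.077 with the length trend removed. Library deviations of the same replicate number correlated at 0.067, 0.033 and -0.064, below 0.1, so the numbers were not taken as pairs, and the block changed no other call of a member, while 1 gene of the CDK inhibitors became higher under it. Of 136 alternative list medians, 41 moved by more than the SD between CTR library medians. The median of cyclin D turnover was above 0 in some alternatives, and those of the other 7 lists stayed below 0 in all 17. With at most 3 fragments per library, CCND2 has no fold change reported here. RBL1 rested on 167 to 272 fragments, and its coefficient of variation over the CTR libraries was 17.3%.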

Other observations

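Further cyclins and CDKs outside the D-type family were listed as well, without the cyclin E and cyclin A genes, which have a list above. This list shares CDK1, CDK2, CDK7 and CCNH with the lists above, so it is not separate from them. Of its 33 genes, 31 were tested, and 3 were higher and 14 lower in miR-8485, with a median log2 fold change of -0.18. These are shares of 9.68% and 45.2%, beside 29.1% and 30.5% of all tested genes. With the gene length trend removed, 6 were higher and 13 lower with a median of -0.082, and after rescaling to TPM, 3 were higher and 17 lower with a median of -0.29. CDK1, the kinase of mitotic entry, fell most (-1.08, adjusted p = 1.4e-05 in limma with Benjamini-Hochberg adjustment), from a CTR mean of 45.6 FPKM (SD 3.10, n = 3) to 21.5 FPKM (SD 1.26, n = 3) with the mimics. CDK9, the kinase of transcription elongation, rose most (0.37, adjusted p = 2.3e-04), with means of 23.8 FPKM in CTR (SD 0.416) and 30.9 FPKM in miR-8485 (SD 0.845, n = 3 each). No gene of this list fell by as much as CCND1, whose log2 fold change was -3.18.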
